A study of Arabidopsis thaliana with 12 samples.

Results

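The genes described are 10 that encode enzymes of starch synthesis in Arabidopsis thaliana, taken by locus from a fixed list: PGM1 (AT5G51820), APS1 (AT5G48300), APL1 (AT5G19220), APL3 (AT4G39210), GBSS1 (AT1G32900), SS1 (AT5G24300), SS2 (AT3G01180), SS3 (AT1G11720), SS4 (AT4G18240) and SBE2.2 (AT5G03650). All 10 were among the 33602 loci of the deposited tables, and all 10 passed the filter on low counts that left 20783 genes. RNA was sequenced from whole seedlings aged 10 days in 12 libraries, 3 for each of 4 groups: the mutant atrx-2 in low light, wild type (Col-0) in low light, atrx-2 in normal light and wild type in normal light. Low light was 30 and normal light 130 µmol per square metre and second, and all groups shared long days of 16 h light and 8 h dark at 21 °C. ATRX is a chromatin remodeller that places the histone variant H3.3. The mutant is represented by 1 allele, and the sources used here do not state the hour of harvest.

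Leaves make starch in the chloroplast by day and degrade it at night, and roots hold starch in amyloplasts. Plastidial phosphoglucomutase (PGM1) makes glucose 1-phosphate, which ADP-glucose pyrophosphorylase (AGPase, built from the small subunit APS1 and large subunits such as APL1 and APL3) turns into ADP-glucose. Soluble starch synthases and branching enzymes build amylopectin from it, the granule-bound synthase GBSS1 makes amylose, and SS4 takes part in starting granules. Transcripts of several of these genes are known to vary over the day.

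Libraries held between 13733302 and 23899191 estimated counts. ATRX itself was low in every atrx-2 library, with 7, 6 and 15 estimated counts in low light, against 681, 564 and 537 in wild type, and with 20, 18 and 16 in normal light, against 753, 733 and 905 in wild type. The 18S ribosomal RNA took 9.77% to 16.7% of the counts in the low-light libraries and 3.70% to 8.64% in the normal-light libraries. Chloroplast genes took 4.83% to 8.90% in low light and 2.29% to 3.55% in normal light. Transcripts typical of green tissue (RBCS1A, RBCS3B, RCA, CA1 and GLDP1) were abundant, and root markers were present at a low level. The 4 seed storage markers summed to at most 0.673 counts per 1e6 (CPM, TMM-scaled) in any library. All 4 were at 0 in atrx-2 in low light. In whole seedlings, fewer cells of a type and less RNA per cell cannot be told apart.

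Transcript abundances in TPM, which are divided by transcript length, were used to rank the genes against each other. TPM rests on the deposited transcript lengths, which differ from those of the RefSeq annotation for 8 of the 10 genes. The effect of this on the ranks was not tested. In low light APL1 and APS1 led, at 93.9 ± 11.1 and 85.5 ± 10.2 TPM in atrx-2 and 94.2 ± 14.0 and 84.1 ± 6.97 TPM in wild type, with overlapping ranges. SS1 came next, at 29.8 ± 2.08 TPM in atrx-2 and 33.2 ± 3.75 TPM in wild type. GBSS1 stood at rank 5 in both genotypes, at 22.7 ± 2.64 TPM in atrx-2 and 21.9 ± 1.80 TPM in wild type, and APL3 was last, at 3.09 ± 0.214 and 2.83 ± 0.671 TPM. In atrx-2 the low-light ranges of SS1 and SBE2.2, of SBE2.2 and GBSS1, and of GBSS1 and PGM1 overlapped, and in wild type those of SS3 and SS2 did.

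The order was different in normal light, where GBSS1, APS1 and APL1 led. In atrx-2 in normal light GBSS1 averaged 103 ± 5.01 TPM, APS1 88.9 ± 4.22 TPM and APL1 81.7 ± 0.774 TPM, and in wild type they averaged 112 ± 12.6, 91.8 ± 7.76 and 83.6 ± 9.36 TPM (SD, n = 3 each). At the low end in normal light stood SS4, at 4.62 ± 0.0946 TPM in atrx-2 and 4.03 ± 0.269 TPM in wild type, and APL3, at 4.23 ± 0.637 TPM in atrx-2 and 4.66 ± 0.872 TPM in wild type. In both genotypes these bottom ranks overlapped in their library ranges. Rescaling TPM without ribosomal RNA and organelle genes multiplies all genes of a library by the same factor. It cannot change their order within a library, and the order by group mean was unchanged for all 10 genes.

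The comparison of low with normal light separated the members. GBSS1 fell 4.22-fold in atrx-2 and 4.38-fold in wild type, while SS4 rose 1.99-fold and 2.11-fold. APL1 and SS1 rose by smaller amounts in both genotypes, and APL3 fell in wild type. By the quasi-likelihood test of edgeR, with Benjamini-Hochberg adjustment over all genes and a threshold of 0.05, 3 members rose and 1 fell in atrx-2, and 3 rose and 2 fell in wild type. Over all tested genes 33.1% were called in atrx-2 (16.1% higher and 16.9% lower) and 34.2% in wild type (16.6% higher and 17.6% lower), so a count of called members of 4 or 5 among 10 is close to the background. The light groups did not overlap for 8 of the 10 members in atrx-2 (all but APS1 and SBE2.2) and for 8 in wild type (all but SS2 and SS3), against 46% of all tested genes in atrx-2 and 45.7% in wild type. The median log2 fold change of the 10 was 0.01 in atrx-2 and 0.16 in wild type, against 0.0069 and -0.0049 for all tested genes. The shares of 18S and chloroplast reads were higher in every low-light library than in any normal-light library. Without ribosomal RNA and organelle genes in the fit, GBSS1, SS4, APL1 and SS1 stayed past the threshold in both genotypes.

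**Figure D1:**
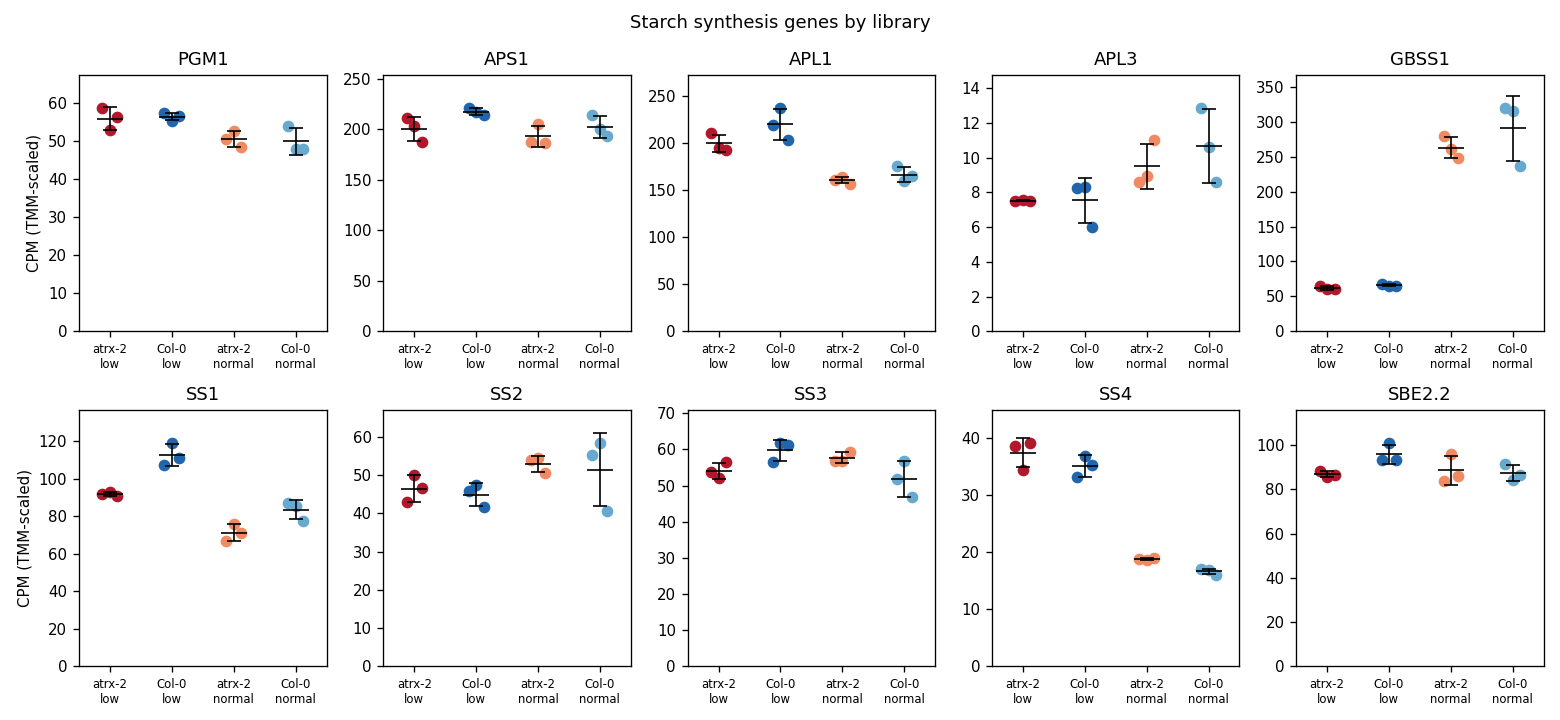
TMM-scaled CPM of each of the 10 genes, with 3 libraries as points per group, the mean as a line and the SD as a bar; groups are atrx-2 and Col-0 in low light, then atrx-2 and Col-0 in normal light. GBSS1 lies between 60.3 and 67.9 CPM in all 6 low-light libraries and between 237 and 319 CPM in the 6 normal-light libraries, and SS4 shows the opposite order.

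GBSS1 (chromosome 1, 11920390 to 11923866, minus strand, in TAIR10.1) encodes the synthase bound to the granule. Its level was 65.5, 60.3 and 61.3 CPM in atrx-2 in low light, against 279, 261 and 249 CPM in atrx-2 in normal light. Wild type had 67.9, 65.6 and 65.3 CPM in low light, against 319, 315 and 237 CPM in normal light. Every low-light library lay below every normal-light library. The log2 fold change was -2.08 ± 0.10 in atrx-2 (SE, adjusted p = 6.05e-09 by edgeR) and -2.13 ± 0.10 in wild type (adjusted p = 4.62e-09). By absolute log2 fold change GBSS1 ranked 291 of 20783 tested genes in atrx-2 and 264 in wild type.

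SS4 (chromosome 4, 10082108 to 10087203, plus strand) encodes the synthase linked to granule initiation, and moved the other way. It was at 38.6, 34.5 and 39.1 CPM in atrx-2 in low light, against 18.7, 18.7 and 18.9 CPM in atrx-2 in normal light. Wild type had 33.2, 36.9 and 35.4 CPM in low light, against 17.0, 16.8 and 16.1 CPM in normal light. The light groups did not overlap in either genotype. The log2 fold change was 0.99 ± 0.07 in atrx-2 (SE, adjusted p = 1.97e-07 by edgeR) and 1.08 ± 0.08 in wild type (adjusted p = 1.11e-07).

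Because GBSS1 and SS4 moved in opposite directions, the reference sequence around their annotated starts is shown, from 250 bases before to 50 bases after the start (RefSeq, TAIR10.1; 5′ to 3′ on the strand of the gene). The GBSS1 window is chr1:11923817-11924116 on the minus strand and the SS4 window chr4:10081858-10082157 on the plus strand.
GBSS1: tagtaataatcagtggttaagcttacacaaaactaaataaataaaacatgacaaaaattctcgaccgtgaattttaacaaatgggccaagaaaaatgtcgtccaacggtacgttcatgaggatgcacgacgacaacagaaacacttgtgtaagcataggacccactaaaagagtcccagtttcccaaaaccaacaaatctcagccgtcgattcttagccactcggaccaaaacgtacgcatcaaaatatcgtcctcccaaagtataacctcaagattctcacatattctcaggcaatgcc
SS4: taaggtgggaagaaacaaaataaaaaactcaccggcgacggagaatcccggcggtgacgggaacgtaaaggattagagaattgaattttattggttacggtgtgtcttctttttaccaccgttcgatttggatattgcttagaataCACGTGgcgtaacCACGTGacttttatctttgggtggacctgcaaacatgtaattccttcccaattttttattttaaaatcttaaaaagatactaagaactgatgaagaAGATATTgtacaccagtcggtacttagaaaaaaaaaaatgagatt
Capitals mark matches, on either strand, to 4 motifs: the G-box CACGTG, the core of the evening element AATATCT, the I-box GATAAG and the TATA box TATAAA, and no 2 matches overlap in these windows. The SS4 window held 2 G-boxes, beginning 104 and 91 bases before the start, and 1 evening element core beginning at base 6 of the transcript. None of these motifs occurred in the GBSS1 window. The deposited transcript length equals the annotated one for SS4 (3395 bases) but not for GBSS1 (2192 against 2292 bases), so the start used for GBSS1 may not be that of the deposited transcript. The lengths differ for 8 of the 10 members, all but APL1 and SS4, and the same limit holds for the motifs of the others. Of 27438 windows of protein-coding genes of the same length, 7.68% held a G-box, 11.5% the evening element core, 14.7% an I-box and 52.2% a TATA box. Among the 10 members, G-boxes were in SS1, SS3 and SS4, the evening element core in PGM1 and SS4, the I-box in SS2, and TATA boxes in SS1 (2 overlapping matches), SS2 and SBE2.2. Whether any of these motifs bears on the light responses was not tested.

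The AGPase genes differed among themselves. APL1 (chromosome 5, 6463824 to 6466831), the main large subunit of leaves, was at 210, 195 and 193 CPM in atrx-2 in low light, against 161, 163 and 157 CPM in atrx-2 in normal light. The wild-type values were 219, 237 and 203 CPM in low light, against 175, 159 and 165 CPM in normal light. All low-light values exceeded all normal-light values, and the log2 fold change was 0.31 ± 0.08 in atrx-2 (SE, adjusted p = 0.0052 by edgeR) and 0.40 ± 0.08 in wild type (adjusted p = 0.000901). APL1 is overlapped on the opposite strand by AT5G19210 and AT5G19221, and the strand setting of the counting was not stated. The estimated counts of AT5G19210 were 2.31% to 4.75% of those of APL1, and it was itself higher in low light, with a log2 of 0.81 in atrx-2 (adjusted p = 0.00382) and 0.56 in wild type (adjusted p = 0.0315). Those of AT5G19221 were 0.188% to 0.715%, and it was not called for light.

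The small subunit gene APS1 was not called for light. It averaged 201 ± 11.8 CPM in low light and 193 ± 10.5 CPM in normal light in atrx-2, and 217 ± 3.17 and 202 ± 10.6 CPM in wild type (SD, n = 3 each). Its log2 values were 0.06 ± 0.07 (SE) and 0.10 ± 0.07. The TPM ratio of APL1 to APS1 was 1.10, 1.06 and 1.13 in atrx-2 in low light, against 0.948, 0.881 and 0.931 in normal light. In wild type it was 1.10, 1.20 and 1.05 in low light, against 0.907, 0.877 and 0.944 in normal light. The large subunit thus stood above the small one in each low-light library and below it in each normal-light library.

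APL3, a large subunit gene known to respond to sugars, was the least abundant member per length in low light. It was at 7.52, 7.56 and 7.50 CPM in atrx-2 in low light, against 8.58, 8.96 and 10.99 CPM in normal light. The wild-type values were 8.28, 8.30 and 6.02 CPM in low light, against 12.8, 10.6 and 8.58 CPM in normal light. The groups did not overlap, though the gap in wild type was narrow. APL3 fell in wild type (log2 -0.48 ± 0.16 SE, adjusted p = 0.0298 by edgeR) and was not called in atrx-2 (-0.34 ± 0.16 SE, adjusted p = 0.12). The wild-type call was lost without normal-light replicate 1 (log2 -0.33, adjusted p = 0.148), normal-light replicate 2 (-0.48, adjusted p = 0.0568) or low-light replicate 3 (-0.36, adjusted p = 0.123). PGM1, upstream of AGPase, had log2 values of 0.15 ± 0.07 in atrx-2 (adjusted p = 0.138) and 0.18 ± 0.07 in wild type (adjusted p = 0.0721); without wild-type normal-light replicate 1 the wild-type value was 0.24 (adjusted p = 0.0323).

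Of the soluble synthases that extend amylopectin chains, SS1 rose in low light. It was at 91.9, 93.1 and 90.6 CPM in atrx-2 in low light, against 66.6, 75.8 and 71.1 CPM in normal light. In wild type it was at 107, 119 and 111 CPM in low light, against 87.2, 85.2 and 77.6 CPM in normal light. The light groups did not overlap. The log2 fold change was 0.37 ± 0.07 in atrx-2 (SE, adjusted p = 0.00159 by edgeR) and 0.43 ± 0.07 in wild type (adjusted p = 0.000442).

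SS2 and SS3 were not called for light in either genotype. SS2 averaged 46.5 ± 3.48 CPM in low light and 53.0 ± 2.11 CPM in normal light in atrx-2, and 44.9 ± 2.99 and 51.4 ± 9.49 CPM in wild type (SD, n = 3 each). The wild-type spread came mainly from normal-light replicate 3, at 40.6 CPM, and without that library SS2 had a log2 of -0.34 (adjusted p = 0.0101 by edgeR) in place of -0.19 (adjusted p = 0.215). SS3 had a log2 of -0.09 ± 0.08 in atrx-2 (SE, adjusted p = 0.391) and 0.21 ± 0.08 in wild type (adjusted p = 0.0508). The wild-type value of SS3 lay close to the threshold, and 6 of 19 alternative settings put it past, with adjusted p from 0.015 to 0.0495. SBE2.2, a branching enzyme, had log2 values of -0.03 ± 0.07 in atrx-2 and 0.13 ± 0.07 in wild type (adjusted p = 0.806 and 0.169). SS2 is overlapped on the other strand by AT3G01175, whose estimated counts were 1.61% to 4.596% of its own. SS3 is overlapped by AT1G04873, which the deposited tables do not list, so it has no level here.

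**Figure D2:**
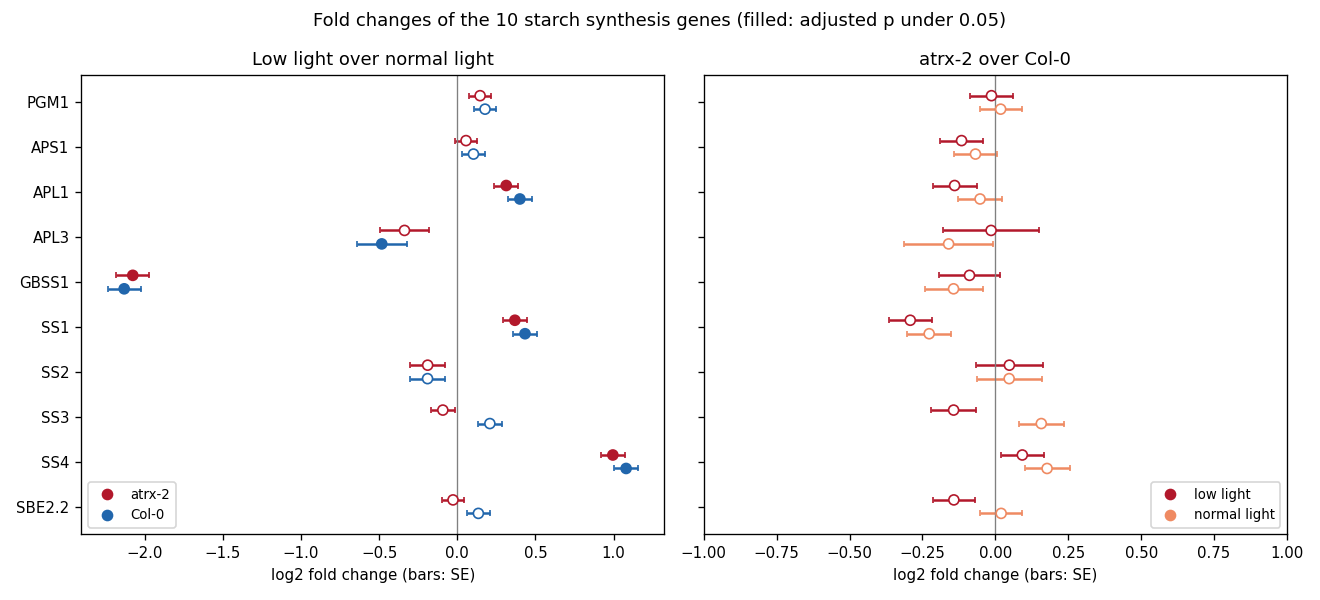
Log2 fold changes of the 10 genes with SE bars, for low over normal light on the left (atrx-2 above Col-0 in each row) and for atrx-2 over Col-0 on the right (low light above normal light), where filled points have an adjusted p under 0.05. GBSS1 stands near -2.1 and SS4 near 1.0 on the left, and no point is filled on the right.

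The makeup of the transcripts of the 5 synthase members differed between the light levels. GBSS1 made up 25.6% to 27.6% of the summed TPM of the 5 synthase genes in atrx-2 in low light, against 62.3% to 65.4% in normal light, and 24.4% to 26.7% in wild type in low light, against 63.0% to 66.2% in normal light. The share of SS1 was 34.2% to 35.4% in atrx-2 in low light, against 13.9% to 16.2% in normal light, and 37.7% to 39.5% in wild type in low light, against 15.8% to 18.4% in normal light. SS4 held 9.17% to 10.3% in atrx-2 in low light and 2.75% to 2.97% in normal light. The TPM ratio of GBSS1 to SS4 was 2.71, 2.79 and 2.50 in atrx-2 in low light, against 23.8, 22.3 and 21.0 in normal light. In wild type it was 3.27, 2.84 and 2.95 in low light, against 30.0, 29.9 and 23.5 in normal light. These are shares within a library, so a change in 1 gene moves the share of all others. They cover the 5 members alone and not every synthase gene, and they rest on the deposited transcript lengths.

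**Figure D3:**
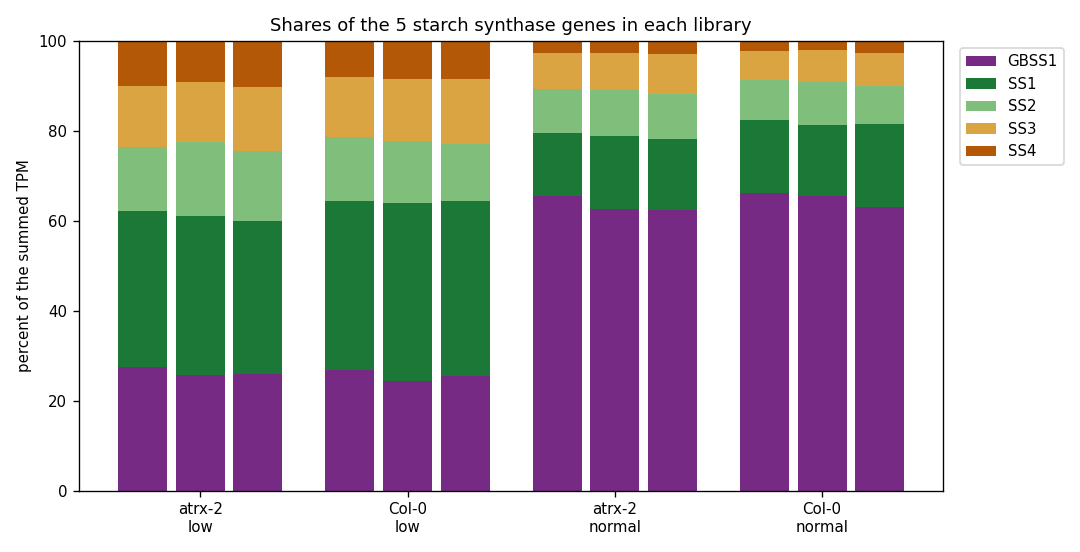
Percent of the summed TPM of GBSS1, SS1, SS2, SS3 and SS4 in each of the 12 libraries, 3 bars per group, with atrx-2 and Col-0 in low light left of atrx-2 and Col-0 in normal light. GBSS1 takes 24.4% to 27.6% of the 6 low-light bars and 62.3% to 66.2% of the 6 normal-light bars.

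Further genes of starch synthesis and its substrates were read from a list of 26, of which 24 were tested. In atrx-2 10 rose and 3 fell in low light, with a median log2 of 0.05, and in wild type 11 rose and 3 fell, with a median of 0.13. The genes that rose were 41.7% of the 24 in atrx-2 and 45.8% in wild type, against 16.1% and 16.6% of all tested genes. Those that fell were 12.5% in each genotype, against 16.9% and 17.6% of all tested genes, and no test of the list was made. The rising genes included APL4, a minor AGPase large subunit (log2 0.98 ± 0.21 SE in atrx-2, adjusted p = 0.00275, and 0.83 ± 0.22 in wild type, adjusted p = 0.008, by edgeR). MFP1, a thylakoid-associated coiled-coil protein, rose by log2 0.74 ± 0.08 in atrx-2 and 0.72 ± 0.08 in wild type, and AT3G55760 rose by 0.76 ± 0.12 and 0.86 ± 0.12. ISA2, a subunit of the debranching enzyme that shapes amylopectin, rose by 0.62 ± 0.09 and 0.64 ± 0.09, and BE1 rose by 0.90 ± 0.14 in atrx-2 and 0.59 ± 0.14 in wild type. NTT1, a plastid ATP/ADP carrier, had log2 values of -0.48 ± 0.09 and -0.42 ± 0.09, PGM2, a cytosolic phosphoglucomutase, -0.44 ± 0.07 and -0.35 ± 0.07, and AT4G32190 -0.52 ± 0.08 and -0.38 ± 0.08; all 3 fell in both genotypes. The untested genes were APS2 and GPT2, which had at most 12 and 7 estimated counts in any library.

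Genes of starch breakdown moved over a wider range than the 10 synthesis genes. Of 16, 10 rose and 3 fell in atrx-2 and 9 rose and 4 fell in wild type, with medians of 0.82 and 0.89. The genes that rose were 62.5% of the 16 in atrx-2 and 56.2% in wild type, against 16.1% and 16.6% of all tested genes, and those that fell were 18.8% and 25%, against 16.9% and 17.6%. PHS1, the plastidial phosphorylase, averaged 178 ± 4.36 CPM in low light and 33.7 ± 4.71 CPM in normal light in atrx-2, and 181 ± 7.68 and 30.4 ± 3.25 CPM in wild type (SD, n = 3 each). AMY3, a plastidial alpha-amylase, rose by log2 2.16 in both genotypes, and the glucanotransferase genes DPE1 and DPE2 rose by 1.90 and 1.76 in atrx-2 and by 1.96 and 1.79 in wild type. The beta-amylase gene BAM3 averaged 44.9 ± 4.68 CPM in low light and 334 ± 53.8 CPM in normal light in atrx-2, and 48.3 ± 4.15 and 365 ± 48.8 CPM in wild type, a log2 of -2.90 and -2.92. BAM1 (-1.15 and -0.91) and the phosphatase gene LSF2 (-0.58 and -0.69) fell in both genotypes, and BAM2 fell in wild type (-0.30, adjusted p = 0.0211 by edgeR) and was not called in atrx-2 (-0.23, adjusted p = 0.0689). Whether the breakdown list differed from the 10 genes was not tested.

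**Figure D4:**
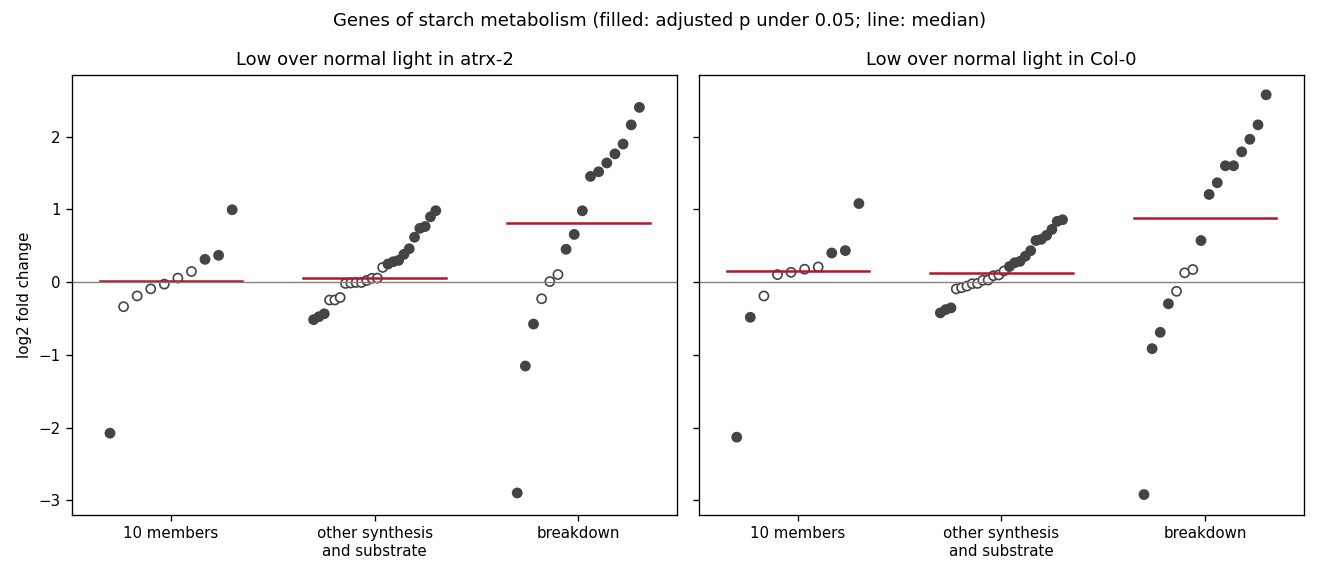
Log2 fold change of low over normal light in atrx-2 (left) and Col-0 (right) for the 10 members, 24 further genes of synthesis and substrates and 16 breakdown genes, where each point is a gene, filled points have an adjusted p under 0.05 and lines are medians. The breakdown genes run from -2.92 to 2.57 in Col-0, and the members from -2.13 to 1.08.

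Green tissue markers were lower in low light, beside these results. Their summed level was 21713 to 24242 CPM in atrx-2 in low light, against 31512 to 34023 CPM in normal light, and 25720 to 27213 CPM in wild type in low light, against 33762 to 36691 CPM in normal light. In each genotype 4 of the 5 fell and RBCS1A was not called, where 16.9% of all tested genes fell in atrx-2 and 17.6% in wild type. The 7 root markers summed to 73.4 to 94.2 CPM in atrx-2 in low light, against 58.2 to 70.5 CPM in normal light, and to 74.4 to 97.1 CPM in wild type, against 70.7 to 82.6 CPM. Of these 7 only TIP2;3, an aquaporin gene, was called, at 25.5 ± 5.99 CPM in low light and 11.4 ± 1.94 CPM in normal light in atrx-2, and 28.4 ± 6.24 and 15.8 ± 1.00 CPM in wild type (SD, n = 3 each), where 16.1% of all tested genes rose in atrx-2 and 16.6% in wild type. The median log2 of the 7 was 0.16 in atrx-2 and -0.06 in wild type, where 4 had a value below 0. No member of these 2 lists was at 0 throughout a group. The part of these differences in the changes of the starch genes was not tested.

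Genes with a course similar to that of GBSS1 over the 12 libraries were found by the root mean square difference of log2 CPM, each gene centred on its own mean. Among the nearest were UNE10, a bHLH transcription factor gene, at 0.118, the ferredoxin gene FD1 at 0.123 and the glycerol-3-phosphate permease gene G3Pp1 (AT3G47420) at 0.125, against a median of 1.07 over all genes. FD1 averaged 239 ± 26.2 CPM in low light and 935 ± 83.7 CPM in normal light in atrx-2, and 261 ± 26.7 and 1027 ± 90.0 CPM in wild type (SD, n = 3 each). UNE10 averaged 14.0 ± 1.12 and 55.4 ± 3.45 CPM in atrx-2, and 15.4 ± 1.52 and 58.9 ± 2.72 CPM in wild type. The light level separates the 12 libraries of GBSS1, so genes close to it by this measure are also lower in low light. For APL3 the nearest were AT5G38510 (0.113), AT5G05500 (0.123), AT3G12685 (0.125) and AT2G41380 (0.129), against a median of 0.35.

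Mutant seedlings were set against wild type to ask whether loss of ATRX altered these genes. None of the 10 was called by edgeR at either light level or averaged over both, against 0.0722% of all tested genes in low light, 0.0674% in normal light and 0.308% averaged. At an unadjusted p under 0.05 there were 1, 2 and 2 members, against 6.54%, 8.62% and 10.2% of all tested genes, and DESeq2 called 0, 0 and 1 of the members and 54, 65 and 158 of all tested genes. The log2 fold changes of the 10 ran from -0.29 to 0.09 in low light and from -0.23 to 0.18 in normal light, with medians of -0.10 and -0.02, against 0.0005 and -0.0046 for all tested genes. No gene of the other synthesis list or of the breakdown list was called either. QQS, an orphan gene named for its known link to leaf starch, was higher in atrx-2 at 8.63 ± 1.92 CPM, against 0.927 ± 0.629 CPM in wild type, in low light, and at 8.18 ± 0.974 CPM, against 1.32 ± 0.306 CPM, in normal light (SD, n = 3 each; adjusted p = 0.000424 and 0.000677 by edgeR).

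SS1 came closest to a call. In low light it was at 91.9, 93.1 and 90.6 CPM in atrx-2, against 107, 119 and 111 CPM in wild type. In normal light it was at 66.6, 75.8 and 71.1 CPM in atrx-2, against 87.2, 85.2 and 77.6 CPM in wild type. Each atrx-2 library lay below each wild-type library of its light level, as for 0.813% of all tested genes. The log2 was -0.29 ± 0.07 in low light (SE, adjusted p = 0.355 by edgeR), -0.23 ± 0.07 in normal light (adjusted p = 0.445) and -0.26 ± 0.05 averaged (adjusted p = 0.0569). The averaged adjusted p was 0.002 with DESeq2 and 0.0466 without the filter on low counts, and over all alternatives it ran from 0.002 to 0.17. Summed green tissue markers were also below wild type in every atrx-2 library in low light and overlapped with wild type in normal light (ranges above), and their part was not tested.

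SS4 had an averaged log2 of 0.13 ± 0.05 (SE, adjusted p = 0.406 by edgeR), with atrx-2 above wild type in normal light without overlap and with overlap in low light. GBSS1 had -0.09 ± 0.10 in low light and -0.14 ± 0.10 in normal light, so its genotype values were small beside its light values. SBE2.2 and APS1 lay below wild type without overlap in low light (log2 -0.14 ± 0.07 and -0.12 ± 0.07) and overlapped in normal light. Groups of atrx-2 and wild type did not overlap for 12.9% of all tested genes in low light and 12.2% in normal light, against 4 and 3 of the 10 members. PGM1 had -0.01 ± 0.07 and 0.02 ± 0.07.

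The difference between the genotype effects at both light levels, which is also the difference between the light effects in both genotypes, was tested as an interaction, taken as low minus normal light. None of the 10 was called by edgeR, 1 had an unadjusted p under 0.05 and DESeq2 called 0, against 0.00481% of all tested genes called by edgeR and 4.4% at the unadjusted p. That member was SS3, with an interaction of -0.30 ± 0.11 (SE, unadjusted p = 0.0154, adjusted p = 0.978 by edgeR). GBSS1, with the widest light response of the 10, had an interaction of 0.05 ± 0.14, SS4 of -0.08 ± 0.11 and APL3 of 0.15 ± 0.23.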

How the data were processed

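Whole-seedling RNA was sequenced as reads of 50 bases in 12 libraries. The authors deposited estimated counts and TPM from kallisto 0.42 against TAIR10, per the submitters' processing notes. DESeq2 is named there too. Each table lists 33602 transcripts, 1 per gene, so isoforms were not separated. Strandedness was not given in the sources used here. Deposited expected counts were rounded to whole numbers; 12.3% to 13.9% of values were not whole (tolerance 1e-06). The deposited TPM values were used for comparing levels between genes.

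The main test was edgeR 4.0.16 (R 4.3.3): filterByExpr by group, TMM scaling and the quasi-likelihood F test on all 4 groups, with 8 residual degrees of freedom and a common biological coefficient of variation of 10.4%. P-values were adjusted by Benjamini-Hochberg over 20783 genes, two-sided, with calls under 0.05. SE is the absolute log2 fold change divided by the square root of F. CPM used TMM-scaled library sizes and is given with its SD. DESeq2 1.42.0 was an alternative. Scripts were checked on simulated counts.

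The labels number the replicates without saying that they came from separate cultures, so the p-values reflect spread among these libraries alone, and that spread may be technical. Replicate pairs differed beyond sampling noise (chi-square of 6.04 to 29.4 per gene). Members and lists were chosen with earlier results of these data known. Named genes beyond the members were the called list genes of largest change, up to 4 per direction in each light comparison, the 4 nearest courses to GBSS1 and to APL3, ATRX and QQS; 1 gene that this rule names is not reported here. AT5G19210, AT5G19221, AT3G01175 and AT1G04873 were named after the annotation was read. Of the 10 members, none had a window of 50 bases that matches exactly in the genome outside the gene's own span. Matches inside that span, where other loci overlap APL1, SS2 and SS3, were not counted. The estimated counts of APL1 were not whole in any library. Coordinates, names and sequences are from the RefSeq annotation of TAIR10.1, 1-based; protein sequences were not used here. In the list of 26, 7 loci have no symbol in that annotation, and those named in the text are given by locus.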

Additional observations from a re-analysis of the deposited data

Results flagged for a closer look

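SS3 was singled out because atrx-2 lay on opposite sides of wild type at the light levels. In low light it was at 53.7, 52.0 and 56.5 CPM in atrx-2, against 56.5, 61.7 and 61.2 CPM in wild type. In normal light it was at 56.8, 56.9 and 59.4 CPM in atrx-2, against 51.8, 56.7 and 46.8 CPM in wild type. The groups did not overlap at either level, but the nearest libraries differed by little. The interaction was -0.3007 on the log2 scale, with an unadjusted p of 0.0154 and an adjusted p of 0.978 by edgeR, so it did not pass the correction over all genes. Of all tested genes 0.351% showed such opposite sides.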

How the results depend on the processing

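Light calls of GBSS1, SS4, APL1 and SS1 stayed past the threshold in all 19 alternatives in each genotype, with log2 of -2.26 to -2.06 for GBSS1 and 1.04 to 1.12 for SS4 in wild type. Over all 1120 member values recomputed, 1070 kept their direction and their side of the threshold, 36 changed sign, 11 passed it only in the alternative and 3 passed it only in the main setting; the cause was not tested. The number of members called stayed at 4 in atrx-2, and leaving out 1 library gave 4 to 6 in wild type. The counts over all genes for genotype were less stable. In normal light the count was 14 (10 higher, 4 lower), but 65 with DESeq2 (39 and 26), 41 with all genes kept, 7 above a minimum of 5 CPM, 25 without ribosomal RNA and organelle genes, 8 with only the libraries compared, and 5 to 19 leaving out 1 library. In low light it was 15 (9 higher, 6 lower), but 54 with DESeq2 (26 and 28), 26 with all genes kept, 9 above 5 CPM and 7 to 21 leaving out 1 library. Averaged, it was 64, but 158 with DESeq2, 100 with all genes kept, 41 above 5 CPM and 31 to 84 leaving out 1 library. For the interaction it was 1, but 3 with DESeq2, 0 above 5 CPM, 0 with the replicate block and 0 to 2 leaving out 1 library. Members called for the averaged genotype were 0, but 1 (SS1) with DESeq2, 1 with all genes kept and 1 with the replicate block (SS1, adjusted p = 0.0415). The labels do not say whether same-numbered libraries belong together, and these correlations do not settle it. Over all groups the correlation of same-numbered libraries ran from -0.15 to 0.17, over 0.1 in 5 of 18 pairs, against -0.20 to 0.18 for other pairs. Between atrx-2 and wild type in low light it was 0.0957, 0.0941 and 0.145, against -0.108 to 0.0139 for other pairs. In normal light it was 0.00923, -0.129 and 0.174, against -0.153 to 0.127. The block changed no other member call. It gave 11 calls over all genes in normal light, 17 in low light and 92 averaged for genotype, and the light counts became 7234 in atrx-2 (6870 without it) and 7540 in wild type (7113 without it). Members near 0 changed sign. The SS2 interaction (0.000756) was -0.00999 with DESeq2, -0.0127 without ribosomal RNA and organelle genes and -0.00143 with the block, and -0.10 to 0.15 leaving out 1 library. Leaving out 1 library gave, for genotype in normal light, -0.0132 to 0.0776 (PGM1), -0.10 to 0.15 (SS2) and -0.0425 to 0.0584 (SBE2.2). In low light it gave -0.0491 to 0.0172 (PGM1), -0.15 to 0.0587 (APL3) and -0.0129 to 0.10 (SS2), and averaged -0.0138 to 0.0321 (PGM1), -0.026 to 0.098 (SS2) and -0.0273 to 0.0419 (SS3). For light in atrx-2 it gave -0.0658 to 0.0353 (SBE2.2), and for the interaction -0.0909 to 0.000116 (PGM1), -0.00756 to 0.29 (APL3) and -0.0181 to 0.18 (GBSS1).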
